A study of Mus musculus with 12 samples.

Results

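Granzymes and the other genes of the cytotoxic granule were followed across lung group 2 innate lymphoid cells (ILC2s) from mice with and without *Sema6d*. The 10 genes were chosen by name from what their products are known to do, though with earlier results of these data known. They are 10 of the 24346 genes in the deposited tables: the granzymes *Gzma*, *Gzmb*, *Gzmc*, *Gzmk* and *Gzmm*, the pore former *Prf1* (perforin), the granule proteoglycan *Srgn* (serglycin), the protease inhibitors *Serpinb9* and *Serpinb6b*, and the papain-type cysteine protease *Ctsw* (cathepsin W). Killer lymphocytes store granzymes and perforin on serglycin in acidic granules, and on contact with a target they release them together, perforin opening the way for the granzymes into the target cell. Inhibitors of the clade B serpin family sit in the cytosol of the killer cell and block granzymes that leak from the granules. NK cells and cytotoxic T cells are the usual source of these proteins, whereas ILC2s are known for type 2 cytokines and amphiregulin.

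The study asked what loss of the semaphorin *Sema6d* does to lung ILC2s at rest and after IL-33, the alarmin that activates them. RNA was sequenced in 4 groups of 3 libraries: wild-type (WT) mice given PBS, *Sema6d*-/- mice (labelled 6DKO) given PBS, WT mice given IL-33 and 6DKO mice given IL-33, all labelled C57BL/6 (C57BL/6J in the methods text) and all treated through the nose for 3 days. The labels give an IL-33 dose of 50 ng, the methods text of the study gives a higher one, and that text puts the age of the mice at 7 to 12 weeks. The cells had been sorted from lung as CD45 positive, lineage negative, Thy1.2 positive and ST2 positive, with antibodies to T cell, B cell, NK cell (NK1.1) and myeloid antigens in the lineage mix. The labels name a SMART-Seq kit with Nextera libraries where the methods text names a TruSeq mRNA kit. How many mice stand behind a library is not stated, so the p-values below measure the spread between libraries.

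The values are FPKM, sequenced fragments scaled to transcript length and to the fragments mapped in the library, and a value of 0 in these tables can be a low level that was missed, since no counts are behind it here. *Sema6d* itself was read in every library. Its level was 27.5, 46.1 and 37.5 FPKM in WT mice given PBS and 29.0, 22.9 and 19.8 FPKM in 6DKO mice given PBS. After IL-33 it was 19.7, 35.5 and 28.7 FPKM in WT mice and 15.4, 13.6 and 13.8 FPKM in 6DKO mice. The 6DKO libraries thus kept reads of the gene, at 0.646 of the WT mean under PBS, where the groups overlap, and at 0.509 under IL-33, where they do not. The two-sided exact permutation p was 0.20 and 0.10, and 0.10 is the smallest that 3 libraries against 3 can give.

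The ILC2 label was checked against 11 of its markers, among them the transcription factor *Gata3*, the IL-33 receptor gene *Il1rl1* and the growth factor gene *Areg*. All 11 were above 0 in all 12 libraries. *Gata3* ran from 295 to 690 FPKM and *Il1rl1* from 117 to 269 FPKM. The markers of a library summed to between 3490 and 5878 FPKM, with *Areg* the most abundant in each. Of T cell markers, *Cd3g* stood at 190 to 480 FPKM in the 12 libraries, *Cd3e* at no more than 9.81 FPKM, and *Cd4* was listed at 0 throughout. The libraries differed in depth, largely along with the treatment. Relative depth was 0.739 to 0.998 in the 6 PBS libraries and 0.969 to 1.39 in the 6 IL-33 libraries, and of 3617 genes of middling level, the share with a value of 0 was 4.67% to 17.7% in PBS libraries and 0.691% to 1.38% in those of IL-33.

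The replicate 2 library of the 6DKO PBS group stood apart from the other 11. It held 22 genes at 20 FPKM or more and at least 10 times the highest of the other libraries, 18 of them neither microRNA nor small nucleolar RNA genes, where each other library held 3 to 7, with at most 4 of that kind; these settings were chosen after values had been seen. Among the 22 were *Gzma* and *Gzmb*, the NK cell receptor genes *Klre1*, *Ncr1*, *Klrb1a* and *Klra4*, the signalling adaptor *Tyrobp* (653 FPKM against 25.9 FPKM in the next library), and genes of lung epithelium such as *Ager* (199 FPKM against 5.38 FPKM) and the water channel *Aqp5* (31.2 FPKM against 0.689 FPKM).

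What the 12 libraries show of the cytotoxic granule is uneven. *Srgn* was among the most abundant transcripts of every library, *Ctsw* was expressed in every library and rose with IL-33, and *Gzma*, *Gzmb* and *Prf1* were above 0 in 5, 6 and 4 libraries, each with its highest level in the same 1. *Gzmc* and *Gzmm* were above 0 in 2 libraries each, at no more than 4.87 FPKM. Of the 10 genes, 9 could be tested, since *Gzmk* was listed at 0 throughout. With limma, which fits all 11430 genes tested and adjusts p over them, 1 of the 9 passed an adjusted p of 0.05 for IL-33 against PBS in WT mice, where 4.32% of all genes did. The same gene, *Ctsw*, was the 1 of 9 that passed in 6DKO mice (2.86% of all genes) and with the effect averaged over both genotypes (8.91%). The median log2 fold change of the 9 was -0.35 in WT mice, -0.32 in 6DKO mice and -0.28 averaged, where the median of all genes tested was 0.16, 0.14 and 0.16. Between genotypes limma called 0 of the 9 under PBS (0.577% of all genes), 0 under IL-33 (0.00875%) and 0 for the interaction of genotype and treatment (0.0175%). At an unadjusted p under 0.05 these counts were 1, 0 and 1, where all genes gave 1484, 213 and 638. The member medians were 0.00, -0.04 and -0.10 there. With another scaling, quantile normalization, the median of all genes for IL-33 against PBS moved by -0.21 in WT mice, by -0.16 in 6DKO mice and by -0.19 averaged, and the share of called genes that were higher went from 62.8% to 51.9%, from 61.8% to 50.0% and from 65.2% to 50.7%.

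**Figure D1:**
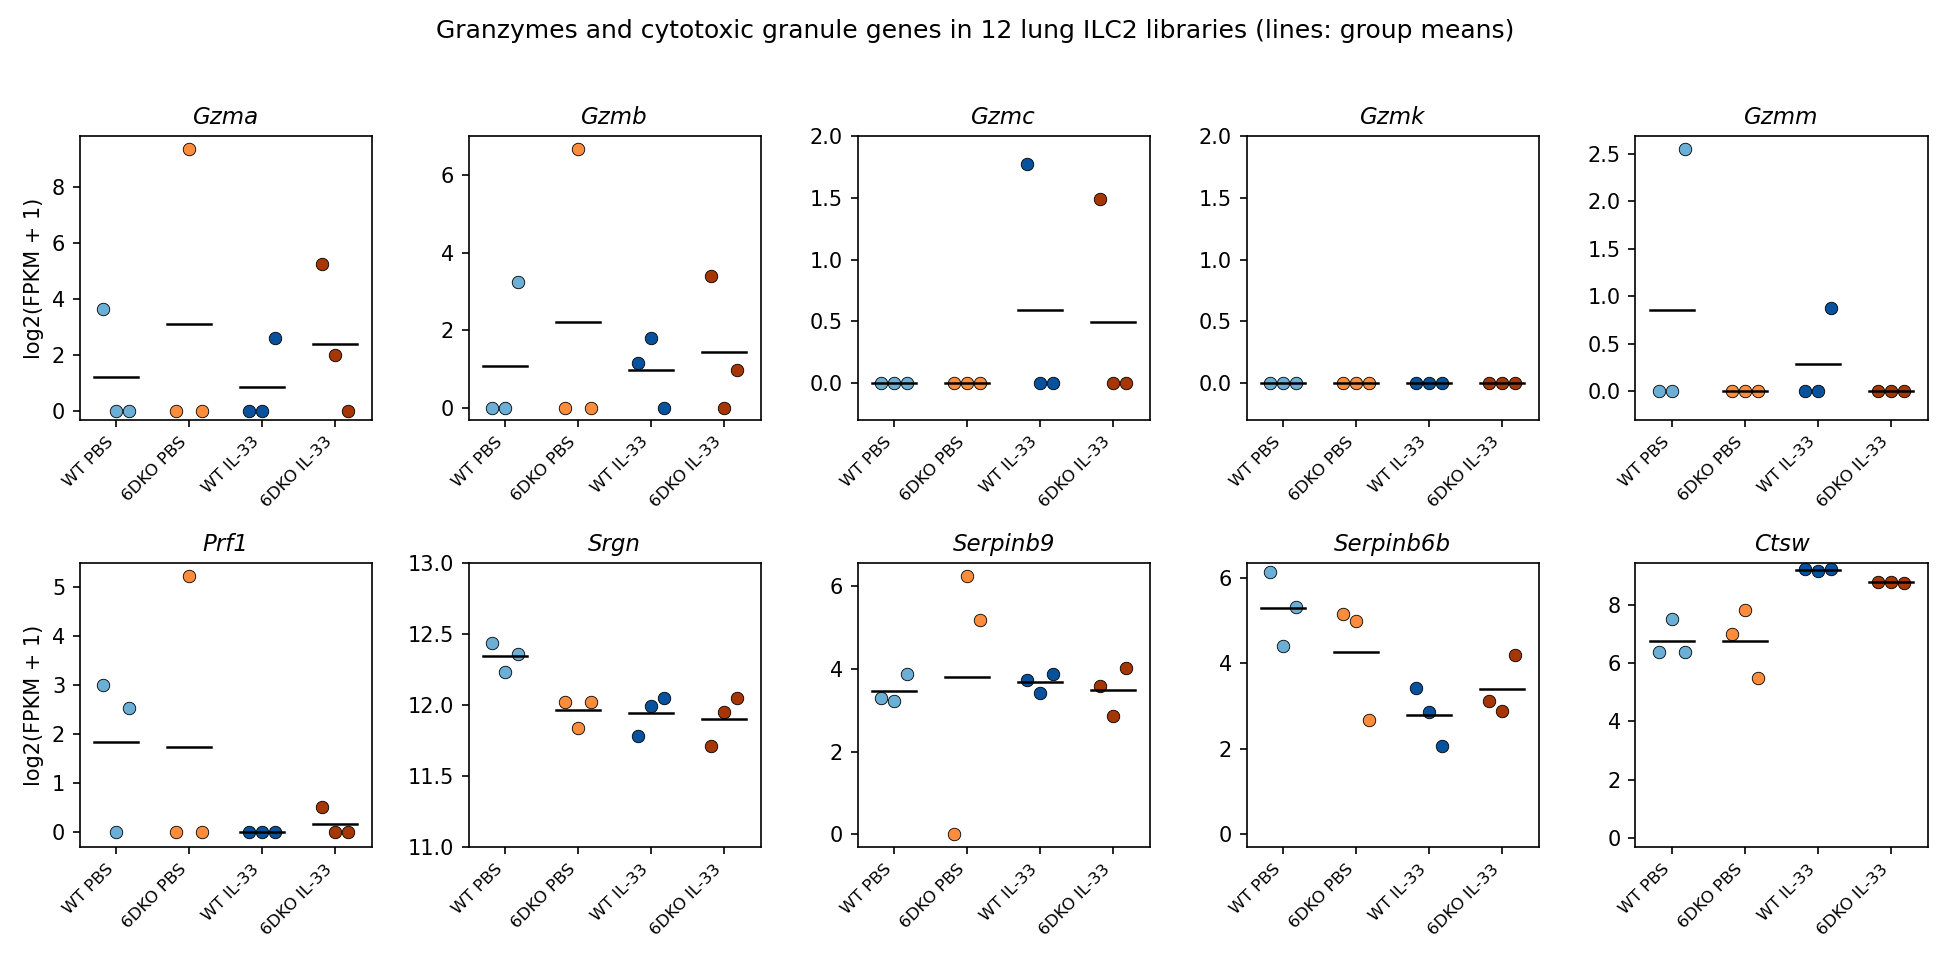
Each panel shows 1 of the 10 genes, with log2(FPKM + 1) on the vertical axis, 1 point for each of the 12 libraries in their 4 groups, and a line at each group mean. The axis of *Srgn* runs from 11 to 13 and not from 0. *Ctsw* sits higher in the 6 IL-33 libraries (433 to 602 FPKM) than in the 6 PBS libraries (44.1 to 223 FPKM), and *Gzma*, *Gzmb* and *Prf1* each have their highest point in replicate 2 of the 6DKO PBS group.

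*Gzma* encodes granzyme A, a tryptase-like protease of NK and T cell granules. In WT mice it was at 11.6, 0 and 0 FPKM under PBS and at 0, 0 and 5.11 FPKM after IL-33. In 6DKO mice it was at 0, 653 and 0 FPKM under PBS and at 37.2, 3.02 and 0 FPKM after IL-33. So 5 of 12 libraries held the transcript, in all 4 groups, and replicate 2 of the 6DKO PBS group carried 92.0% of its sum over the libraries. *Gzmb* encodes granzyme B, the protease that starts caspase cleavage in the target. It was at 0, 0 and 8.44 FPKM in WT mice given PBS, at 0, 100 and 0 FPKM in 6DKO mice given PBS, at 1.24, 2.48 and 0 FPKM in WT mice given IL-33, and at 9.49, 0 and 0.957 FPKM in 6DKO mice given IL-33. Its 6 libraries above 0 again lie in all 4 groups, and 81.6% of the sum came from the same library. *Prf1*, whose product forms the pore, was at 6.99, 0 and 4.78 FPKM in WT mice given PBS and at 0, 36.3 and 0 FPKM in 6DKO mice given PBS. After IL-33 it was listed at 0 in 5 of 6 libraries and stood at 0.414 FPKM in replicate 1 of the 6DKO group. The same 6DKO PBS library held 74.9% of the *Prf1* sum.

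No comparison separated these 3 genes, and every pair of groups overlapped. With treatment permuted within each genotype, the two-sided exact p for IL-33 against PBS was 0.85 for *Gzma*, 0.76 for *Gzmb* and 0.20 for *Prf1*, where 0.005 is the smallest possible. Between genotypes under PBS the exact p was 1 for each of the 3. Without replicate 2 of the 6DKO PBS group, the highest level left among the 11 libraries was 37.2 FPKM for *Gzma*, 9.49 FPKM for *Gzmb* and 6.99 FPKM for *Prf1*, and the other 6DKO PBS libraries were listed at 0 for all 3 genes. Both 37.2 FPKM for *Gzma* and 9.49 FPKM for *Gzmb* come from replicate 1 of the 6DKO IL-33 group.

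The remaining granzymes were low or listed at 0. *Gzmc*, a neighbour of *Gzmb*, was at 2.42 FPKM in replicate 1 of WT mice given IL-33 and at 1.81 FPKM in replicate 1 of 6DKO mice given IL-33, and listed at 0 in the other 10 libraries. *Gzmm* was at 4.87 FPKM in replicate 3 of WT mice given PBS and at 0.829 FPKM in replicate 3 of WT mice given IL-33, and listed at 0 in 6DKO libraries. *Gzmk* was listed at 0 in all 12, which need not be a low level, since the widely expressed vesicle gene *Vamp7* was listed at 0 in all 12 too. The granzymes *Gzmd*, *Gzme*, *Gzmf* and *Gzmg*, which killer cells make on strong stimulation, and *Gzmn* were 5 of 5 listed at 0 in all 12 libraries. *Gzmb*, *Gzmc* and those 5 lie in the granzyme and chymase cluster of chromosome 14, of which 9 of 14 genes were listed at 0 everywhere. The 5 others gave 0 calls with limma in any comparison (0.00875% to 8.91% of all genes), and 0 at an unadjusted p under 0.05 (1.86% to 22.7%), counts that 5 genes are too few to set apart from all genes. After *Gzmb*, its highest means were those of the mast cell chymases *Mcpt2*, at 6.21 FPKM in replicate 3 of 6DKO mice given IL-33, and *Cma1*, at 5.90 FPKM in replicate 2 of 6DKO mice given PBS; both were listed at 0 elsewhere.

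Markers of NK cells and ILC1s had their highest sums in the 2 libraries with the most *Gzma* and *Gzmb*. The list has 11 genes: *Ncr1*, *Klrb1c*, *Klrd1*, *Klre1*, *Klra8*, *Klra4*, *Klra3*, *Klrc1*, *Klri2* and the transcription factors *Eomes* and *Tbx21*, the last 2 also on the list of regulators below. In replicate 2 of the 6DKO PBS group 9 of the 11 were above 0, with a sum of 200 FPKM, and *Klra3* and *Klri2* were at 0. The most abundant was *Klre1* at 65.8 FPKM, followed by *Ncr1* at 58.9 FPKM, *Klra4* at 28.3 FPKM and *Klrd1* at 24.0 FPKM. *Eomes* stood at 5.47 FPKM and *Tbx21* at 9.40 FPKM there. *Klrb1c*, which encodes the NK1.1 antigen of the sorting mix, was at 3.06 FPKM. In the other 11 libraries the list summed to a median of 0.377 FPKM. Those sums were 0.945, 0 and 0 FPKM in WT mice given PBS, 0 and 4.70 FPKM in the other 6DKO PBS libraries, 0.375, 1.17 and 0.973 FPKM in WT mice given IL-33, and 12.7, 0.377 and 0 FPKM in 6DKO mice given IL-33. The 12.7 FPKM belong to the library with the next highest *Gzma*, where 6 of the 11 markers were above 0 and *Klrd1* led at 4.81 FPKM. In the 2 WT PBS libraries that held *Prf1*, the list summed to 0.945 and 0 FPKM, the second of them with *Gzmb* at 8.44 FPKM and *Gzmm* at 4.87 FPKM. With limma 0 of the 11 markers were called in any comparison; at an unadjusted p under 0.05 it was 1 for IL-33 against PBS in 6DKO mice (15.2% of all genes), 1 between genotypes under PBS (13%), 1 for the interaction (5.58%) and 0 in the other comparisons. Without replicate 2 of the 6DKO PBS group limma called 0 of the 11 in each comparison, with 0 at an unadjusted p under 0.05. The part of such cells in the granzyme values was not tested, and in bulk RNA more cells of a type and more RNA in each cell cannot be told apart.

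Other markers were read in the same library. A list of 10 genes of lung epithelium, written after the value of *Ager* had been seen, summed to 271 FPKM there with 5 of 10 above 0, *Ager* leading at 199 FPKM. In the other PBS libraries it summed to 38.1, 35.2 and 37.5 FPKM in WT mice and to 54.0 and 44.3 FPKM in 6DKO mice. *Epcam* led in each of these 5, at 16.4 to 54.0 FPKM, and was at 22.3 FPKM in the library with *Ager*, where *Sftpc*, *Sftpb*, *Sftpa1*, *Sftpd* and *Cdh1* were listed at 0. In the IL-33 libraries it was 22.6, 26.0 and 17.3 FPKM in WT mice and 27.1, 8.30 and 113 FPKM in 6DKO mice, the last with *Sftpc* at 97.2 FPKM while *Gzma* and *Prf1* were listed at 0 and *Gzmb* was at 0.957 FPKM. An endothelial list written at the same time summed to 23.1 FPKM in the library, led by *Cldn5*, and to between 1.32 and 20.9 FPKM in the others. The macrophage and dendritic cell list summed to 203 FPKM there, above the 8.69 to 172 FPKM of the other PBS libraries and below the 291 to 1027 FPKM of the IL-33 libraries, where *Cd74* led. *Lyz2* was at 112 FPKM there (at most 57.9 FPKM elsewhere), and *Marco* (7.28 FPKM against 0), *Mrc1* (6.84 FPKM against 2.16 FPKM) and *Itgax* (2.83 FPKM against 0.0606 FPKM) also had their highest value there, while *Cd68*, *Csf1r* and *Adgre1* were listed at 0. The mast cell and basophil list reached its highest sum there, 245 FPKM against 60.2 to 176 FPKM, led by *Kit* at 150 FPKM, with *Mcpt8* and *Mcpt4* at 0 in all 12 libraries. T cell markers summed to 276 FPKM (209 to 490 FPKM elsewhere) and neutrophil markers to 7.34 FPKM (5.67 to 13.5 FPKM), mostly *Cxcr2*, with *S100a8* and *S100a9* at 0 throughout. Eosinophil markers summed to 0.282 FPKM (0 to 2.07 FPKM), with *Epx* and *Prg2* at 0 throughout, B cell markers to 0 (0 to 26.9 FPKM) and ILC3 markers to 8.86 FPKM (12 to 79.8 FPKM). The ILC2 markers summed to 3897 FPKM there, against 4209 to 5878 FPKM in the other PBS libraries and 3490 to 4133 FPKM in the IL-33 libraries.

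**Figure D2:**
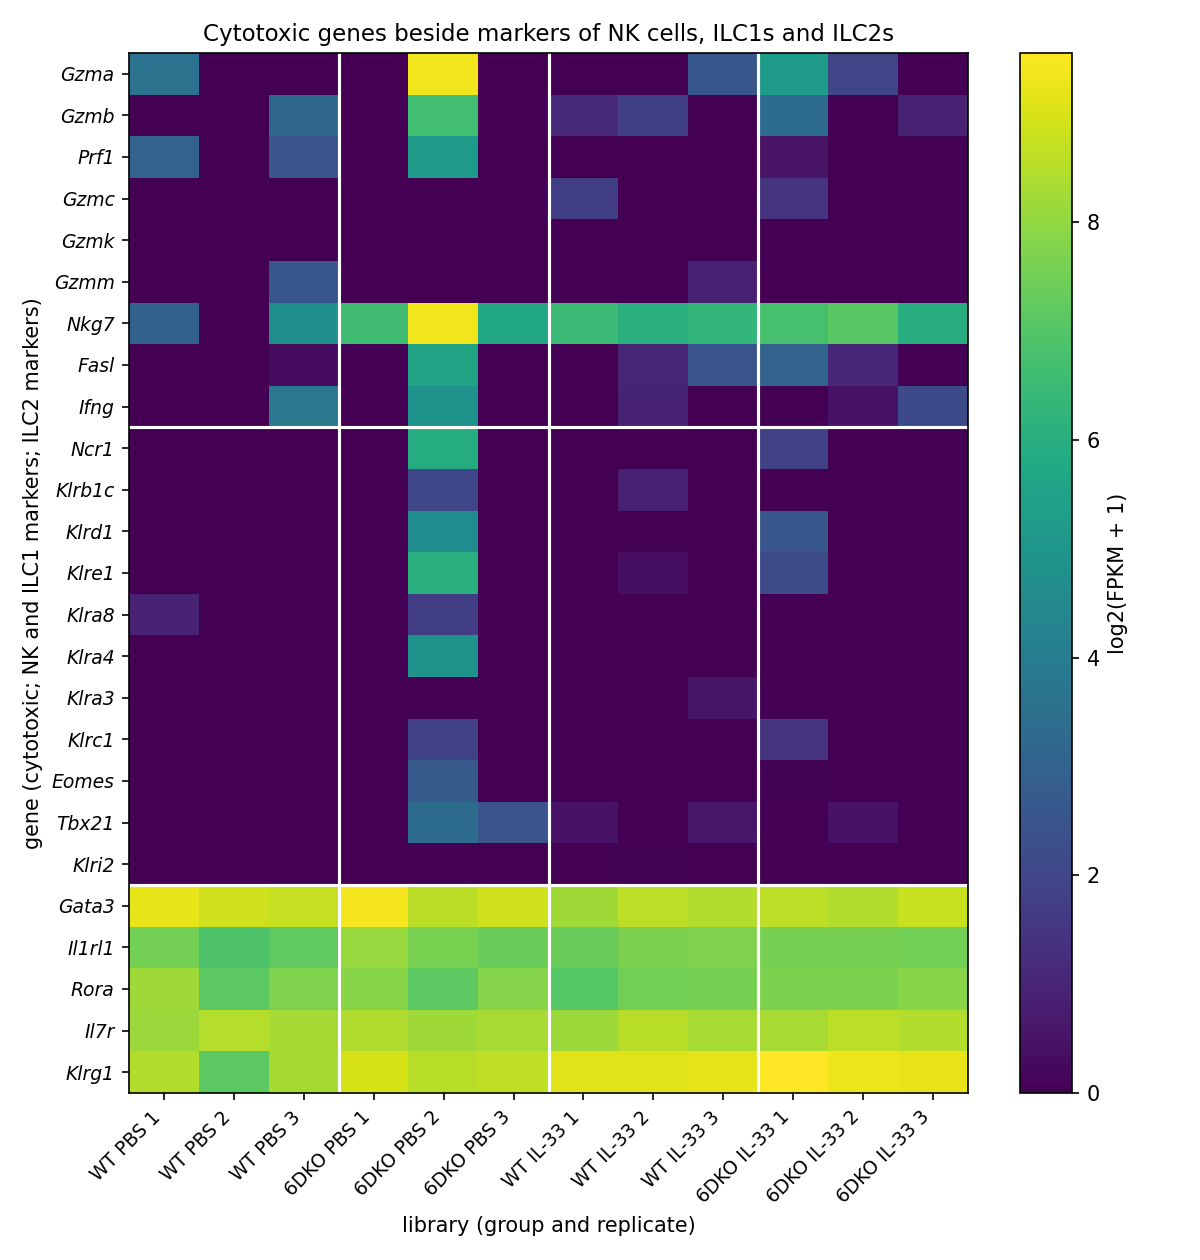
The heat map gives log2(FPKM + 1), as colour, of 9 cytotoxic genes, 11 NK cell and ILC1 markers and 5 ILC2 markers (vertical axis) in the 12 libraries (horizontal axis). The NK markers stand out in replicate 2 of the 6DKO PBS group, where they sum to 200 FPKM against at most 12.7 FPKM elsewhere, and the ILC2 markers are high in all 12 libraries.

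*Nkg7*, a membrane protein of cytotoxic granules, had a pattern of its own. It was at 6.83, 0 and 26.0 FPKM in WT mice given PBS and at 96.7, 658 and 50.4 FPKM in 6DKO mice given PBS. After IL-33 it was at 90.0, 66.3 and 79.0 FPKM in WT mice and at 107, 138 and 61.2 FPKM in 6DKO mice. The 6DKO PBS libraries all lay above the WT PBS libraries, the one with the NK markers highest. The difference between genotypes under PBS was 4.65 on the log2 scale (SE 1.08), with an adjusted p of 0.106 by limma, so it was not called. Without the library with the NK markers it was 3.57 (SE 1.06, adjusted p 0.173), and without replicate 3 of the WT PBS group it was 5.74 and called (adjusted p 0.0265, 0.0265 to 0.848 over 19 alternatives). In the other 2 6DKO PBS libraries, with *Nkg7* at 96.7 and 50.4 FPKM, the NK cell and ILC1 list summed to 0 and 4.70 FPKM, the latter all *Tbx21*.

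*Gzma*, *Gzmb* and *Prf1* were high together in 1 library, so their promoters are shown. Of the 10 genes 9 had an entry in the RefSeq promoter table (build GRCm38.p6), with 11 transcription starts between them, and *Ctsw* is named only. Bases 21 to 50 after the start lie in a transcript of the gene in the annotation used for positions for 8 of the 11 starts, and not for those of *Gzmb*, *Gzmk* and *Prf1*, whose windows are uncertain to that extent. The 250 bases before each start were searched on both strands for TGTGGT, the core that RUNX factors bind (on the other strand ACCACA), for TCACACC, a T-box element of the kind bound by T-bet and Eomes (on the other strand GGTGTGA), and for TTCNNNGAA, the STAT palindrome. The RUNX letters occur in 14.0% of 32851 promoters of this length, the T-box letters in 3.33% and the STAT letters in 7.02%. Among the 11 starts, 6 held the RUNX letters, 1 each for *Gzma*, *Gzmb*, *Gzmc*, *Gzmm*, *Prf1* and *Srgn*; 2 held the T-box letters (*Gzmk* and the other start of *Gzmm*) and 1 held the STAT letters (*Gzmm*). The windows of *Serpinb9* and *Serpinb6b* held none of the 3. The RUNX gene *Runx3* was at 11.3 to 37.9 FPKM in the 12 libraries. A match describes letters and does not show a bound site. The windows shown are chr13:113100982-113101231 on the minus strand for *Gzma*, chr14:56262335-56262584 on the minus strand for *Gzmb* and chr10:61297586-61297835 on the plus strand for *Prf1*, each written 5′ to 3′ along its gene with the RUNX letters in capitals.
Gzma: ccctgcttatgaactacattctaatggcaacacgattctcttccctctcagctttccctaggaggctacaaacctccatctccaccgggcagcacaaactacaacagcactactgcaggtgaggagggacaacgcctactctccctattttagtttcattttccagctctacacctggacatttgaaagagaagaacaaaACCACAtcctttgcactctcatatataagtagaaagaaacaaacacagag
Gzmb: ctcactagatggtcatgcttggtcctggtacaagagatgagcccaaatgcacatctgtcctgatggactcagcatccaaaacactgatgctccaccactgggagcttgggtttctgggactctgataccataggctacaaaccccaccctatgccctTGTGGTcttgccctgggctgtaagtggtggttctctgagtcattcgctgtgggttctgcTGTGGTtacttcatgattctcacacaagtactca
Prf1: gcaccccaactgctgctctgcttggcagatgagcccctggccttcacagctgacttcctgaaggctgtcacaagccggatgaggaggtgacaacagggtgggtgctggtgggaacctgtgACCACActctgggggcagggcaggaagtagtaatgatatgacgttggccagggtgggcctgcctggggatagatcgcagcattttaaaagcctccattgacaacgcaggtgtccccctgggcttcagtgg

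Serglycin, the core protein on which granzymes are stored, is made by most blood-derived cells. *Srgn* was at 5553, 4824 and 5253 FPKM in WT mice given PBS and at 4163, 3666 and 4156 FPKM in 6DKO mice given PBS. After IL-33 it was at 3525, 4083 and 4244 FPKM in WT mice and at 3351, 3957 and 4245 FPKM in 6DKO mice. The WT PBS libraries lay above all others, and the other 3 groups overlapped. Group means were 5210 ± 366, 3995 ± 285, 3951 ± 377 and 3851 ± 456 FPKM in that order (SD, n = 3). By rank it stood between place 9 and place 28 in each library. For IL-33 against PBS in WT mice the log2 fold change was -0.40 (SE 0.11, ratio 0.758), and limma gave an adjusted p of 0.0654, so the gene was not called. In 6DKO mice it was -0.06 (adjusted p 0.857). Between genotypes under PBS it was -0.38 (SE 0.11, ratio 0.767), with an adjusted p of 0.207. Under IL-33 it was -0.04 (adjusted p 1). The interaction of genotype and treatment was 0.34 (SE 0.15), with an unadjusted limma p of 0.0464 and an adjusted p of 0.885. The exact permutation p was 0.10 for both comparisons without overlap and 0.13 for the interaction.

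The granzyme B inhibitor *Serpinb9* was at 8.92, 8.32 and 13.8 FPKM in WT mice given PBS and at 0, 74.9 and 35.3 FPKM in 6DKO mice given PBS. The IL-33 libraries held 12.4, 9.72 and 13.8 FPKM in WT mice and 11, 6.30 and 15.3 FPKM in 6DKO mice. So it was present in 11 of 12 libraries, nearly level in 3 groups, and spread from 0 to its highest value in the 6DKO PBS group. The library at 0, replicate 1 of that group, also listed 17.7% of the genes of middling level at 0, the largest share of the 12. No limma comparison called *Serpinb9*. The log2 difference between genotypes under PBS was 0.34 (adjusted p 0.954), and it turned to -0.88 without replicate 2 of the 6DKO PBS group. Without replicate 1 of that group the difference was 2.24, with an adjusted p of 0.0452 (up to 1 over the 19 alternatives), and IL-33 against PBS in 6DKO mice was -2.22, with an adjusted p of 0.0339 (0.0339 to 1 over the 19 alternatives).

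*Serpinb6b*, a relative from the same serpin clade, was at 69.3, 20.2 and 38.8 FPKM in WT mice given PBS and at 34.5, 31.0 and 5.34 FPKM in 6DKO mice given PBS. Its IL-33 levels were 9.68, 6.26 and 3.18 FPKM in WT mice and 7.61, 6.35 and 17.4 FPKM in 6DKO mice. In WT mice every IL-33 library lay below every PBS library, while in 6DKO mice the groups overlapped through the PBS library at 5.34 FPKM. The means were 42.8 ± 24.8 and 6.37 ± 3.25 FPKM in WT mice, and 23.6 ± 15.9 and 10.5 ± 6.07 FPKM in 6DKO mice (SD, n = 3). The log2 fold change with IL-33 was -2.50 in WT mice (SE 0.71, ratio 0.149), which limma gave an adjusted p of 0.0744, and -0.88 in 6DKO mice (adjusted p 0.608). Averaged over genotypes it was -1.69 (SE 0.50), with an adjusted p of 0.058. The gene was thus not called, and the interaction was 1.63 (adjusted p 0.895). It was called without replicate 3 of the 6DKO PBS group, at -2.50 in WT mice (adjusted p 0.0285, 0.0285 to 0.263 over 19 alternatives) and -2.09 averaged (adjusted p 0.0102), and without replicate 2 of the WT PBS group at -1.91 averaged (adjusted p 0.0432, 0.0102 to 0.141 over 18 alternatives). The exact p for IL-33 with treatment permuted within genotype was 0.025.

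The wider clade B serpin family was read from a list of 15 genes that holds both. Of these 7 were listed at 0 everywhere and 8 were tested. With IL-33, averaged over genotypes, 1 of the 8 rose and 2 fell (5.81% and 3.1% of all genes), with a list median of -0.16 against 0.16 for all genes. *Serpinb1a*, an inhibitor of neutrophil-type serine proteases, fell by 0.75 on the log2 scale (SE 0.11, adjusted p 0.00158). Its levels were 242, 325 and 233 FPKM in WT mice, and 287, 318 and 287 FPKM in 6DKO mice given PBS, against 140, 174 and 150 FPKM and 180, 173 and 182 FPKM after IL-33, so the treatments did not overlap. *Serpinb6a*, a cytosolic relative of *Serpinb6b*, rose by 2.08 (SE 0.42, adjusted p 0.00909), from 65.7, 26.1 and 18.1 FPKM and 11.9, 61.2 and 68.6 FPKM to 142, 208 and 149 FPKM and 131, 140 and 132 FPKM. *Serpinb2*, a plasminogen activator inhibitor, fell by 3.56 (SE 0.73, adjusted p 0.0101). It was at 14.6, 26.1 and 36.2 FPKM in WT mice, and 37.1, 0 and 13 FPKM in 6DKO mice given PBS, and at most 0.644 FPKM after IL-33. These 3 averaged calls held in 18 of 18 alternatives. Of the exonic bases of *Serpinb6a*, 29.3% overlap genes of the opposite strand, and of those of *Serpinb2*, 12.4% overlap *Serpinb10*, so their levels are uncertain to that extent. In WT mice limma called the same 3 genes (4.32% of all genes), and in 6DKO mice *Serpinb1a* (2.86%). The interaction was 1.82 for *Serpinb2* (adjusted p 0.895) and -0.52 for *Serpinb6a* (adjusted p 0.936). Limma called it for 0 of the 8 (0.0175% of all genes), with 0 at an unadjusted p under 0.05 (5.58%). Among the 3 WT calls, *Serpinb2* was lost in 12 of 19 alternatives (adjusted p up to 0.114) and *Serpinb6a* in 13 (up to 0.171), and the *Serpinb1a* calls were lost in 3 for WT mice (up to 0.0892) and in 7 for 6DKO mice (up to 0.119). Between genotypes 0 of the 8 were called (0.577% of all genes under PBS and 0.00875% under IL-33). At an unadjusted limma p under 0.05 there were 0 of the 8 (13% and 1.86% of all genes).

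*Ctsw*, a protease gene of NK cells and cytotoxic T cells, rose with IL-33 in both genotypes. It was at 82.7, 181 and 82.1 FPKM in WT mice given PBS and at 126, 223 and 44.1 FPKM in 6DKO mice given PBS. After IL-33 it was at 594, 573 and 602 FPKM in WT mice and at 436, 445 and 433 FPKM in 6DKO mice. Every IL-33 library lay above every PBS library, and the IL-33 libraries of a genotype lay close together. Means were 115 ± 57.0 and 131 ± 89.5 FPKM under PBS, and 590 ± 14.5 and 438 ± 6.32 FPKM after IL-33, WT before 6DKO (SD, n = 3). The log2 fold change was 2.45 in WT mice (SE 0.47, ratio 5.11), with an adjusted p of 0.0122 by limma. In 6DKO mice it was 2.01 (SE 0.47, ratio 3.34), with an adjusted p of 0.043. Averaged over genotypes it was 2.23 (SE 0.33, ratio 4.17), with an adjusted p of 0.00144. The exact p with treatment permuted within genotype was 0.005, the smallest possible. With quantile normalization the 3 values were 2.41, 2.02 and 2.21. The averaged call held in 18 of 18 alternatives, with log2 fold changes of 1.91 to 2.49 and adjusted p of 0.000199 to 0.00635. Without replicate 2 of the 6DKO PBS group it was 2.49 averaged and 2.54 in 6DKO mice (adjusted p 0.0131).

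The calls of *Ctsw* within 1 genotype were less firm. In WT mice the adjusted p was 0.0516 without replicate 1 of the WT PBS group, and 0.0571, 0.0514 and 0.0567 without replicate 1, 2 and 3 of the WT IL-33 group (0.00163 to 0.0571 over 19 alternatives). In 6DKO mice it was 0.0533 and 0.0547 without replicates 1 and 3 of the WT PBS group, 0.0724 and 0.0543 without replicates 1 and 3 of the 6DKO PBS group, 0.0716 to 0.0735 without any 1 of the WT IL-33 libraries and 0.142 to 0.144 without any 1 of the 6DKO IL-33 libraries. It was also 0.0781 with no filter on low values and 0.159 with only the groups compared in the fit (0.0125 to 0.159 over 19 alternatives). Relative depth and the share of genes at 0 moved with the treatment as given above, while *Ctsw* was above 0 in all 12 libraries; their part in the rise was not tested.

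Between genotypes *Ctsw* was not called. Under IL-33 the 6DKO libraries all lay below the WT libraries, at a ratio of 0.744, and the log2 difference was -0.43 (SE 0.47, adjusted p 1). That made *Ctsw* 1 of 9 member genes without overlap there, where 14.2% of all genes had none. Its exact p was 0.10, the smallest possible. The SE of 0.47 pools the spread of all 4 groups. *Ctsw* varied less under IL-33 (SD 14.5 and 6.32 FPKM) than under PBS (SD 57.0 and 89.5 FPKM). Over 19 alternatives the difference under IL-33 was -0.45 to -0.37, with an adjusted p by limma as low as 0.13. Under PBS the difference was 0.01 (adjusted p 1). The interaction was -0.43 (SE 0.66, adjusted p 0.932), and without replicate 2 of the 6DKO PBS group it was 0.087. In the other comparisons the member genes without overlap were 3 of 9 for IL-33 in WT mice (*Srgn*, *Serpinb6b* and *Ctsw*; 25.0% of all genes), 1 of 9 for IL-33 in 6DKO mice (*Ctsw*; 22.6%) and 1 of 9 between genotypes under PBS (*Srgn*; 8.60%).

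Proteases and membrane proteins that mature cytotoxic granules were followed in a list of 13 genes, *Ctsw* and *Srgn* included. With IL-33, averaged over genotypes, limma called 4 of 13 as higher and 0 as lower (5.81% and 3.1% of all genes), and the list median was 0.58 against 0.16 for all genes. Besides *Ctsw* these were *Ctsc* (cathepsin C, which activates granzymes by trimming them), *Ctsh* (cathepsin H) and *Lamp2* (a lysosomal membrane protein). *Ctsh* was at 3.74, 4.76 and 7.01 FPKM in WT mice, and at 0, 0.402 and 0.0865 FPKM in 6DKO mice given PBS. With IL-33 the levels were 24.3, 13.3 and 20.3 FPKM in WT mice, and 22.5, 33.7 and 17.1 FPKM in 6DKO mice. It rose by 3.06 on the log2 scale averaged (SE 0.32, adjusted p 0.000118) and by 4.41 in 6DKO mice (SE 0.45, adjusted p 0.00047). In WT mice the change was 1.71 (SE 0.45, adjusted p 0.0558), and the interaction of 2.70 (SE 0.63) had an adjusted p of 0.427. Under PBS the 6DKO libraries lay below the WT libraries, and *Ctsh* was the 1 of 13 genes called between genotypes (0.577% of all genes), where it fell by 2.39 (SE 0.45, adjusted p 0.0404). That call was lost in 12 of 19 alternatives: without replicate 2 of the WT PBS group (adjusted p 0.0561), without any 1 of the 6 IL-33 libraries (0.0754 to 0.0951) and in 5 other settings (up to 0.563), with log2 differences of -4.60 to -2.08 over the 19.

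*Lamp2* was at 41.7, 42.1 and 24.3 FPKM in WT mice, and at 13.5, 16.5 and 18.7 FPKM in 6DKO mice given PBS. IL-33 libraries held it at 75.6, 52.7 and 58.5 FPKM in WT mice, and at 60.5, 72.8 and 50.4 FPKM in 6DKO mice. The treatments did not overlap, and under PBS neither did the genotypes. It rose by 1.32 averaged (SE 0.20, adjusted p 0.0018) and by 1.85 in 6DKO mice (SE 0.29, adjusted p 0.00624), with 0.80 in WT mice (adjusted p 0.165) and an interaction of 1.05 (adjusted p 0.879). Between genotypes under PBS the difference was -1.08 (adjusted p 0.178). *Ctsc* was at 21.5, 55.3 and 28.7 FPKM in WT mice, and at 35.2, 28.9 and 32.5 FPKM in 6DKO mice given PBS, and at 61.4, 63.6 and 40.0 FPKM and 59.7, 65.4 and 64.8 FPKM after IL-33. It rose by 0.83 averaged (SE 0.23, adjusted p 0.0446), a call that ended in 12 of 18 alternatives, among them leaving out any 1 library other than replicate 2 of the WT PBS group and replicate 3 of the WT IL-33 group (adjusted p 0.0504 to 0.114). The *Ctsh* and *Lamp2* calls, averaged and in 6DKO mice, held in every alternative. *Lamp1*, the granule membrane protein read as a mark of degranulation, was at 181 to 337 FPKM, with -0.20 averaged (adjusted p 0.493). *Cst7* (cystatin F, an inhibitor of cathepsin C and H) was at 67.8 to 148 FPKM in 11 libraries and listed at 0 in replicate 1 of the 6DKO PBS group. At an unadjusted p under 0.05 between genotypes under PBS were 5 of the 13 (13% of all genes). Under IL-33 limma called 0 of the 13 between genotypes, with 0 at an unadjusted p under 0.05 (1.86%), and for the interaction it called 0, with 4 at an unadjusted p under 0.05 (5.58%).

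The release machinery was followed in 15 genes, of which *Vamp7* was listed at 0 in all libraries and 14 were tested. With limma 0 of 14 were called for IL-33 in WT mice (2 at an unadjusted p under 0.05, where 17.7% of all genes were), 0 in 6DKO mice (1, where 15.2% were) and 1 averaged over genotypes, where 8.91% of all genes were called. That gene was *Coro1a*, an actin regulator needed for granule release, at 676 to 822 FPKM in the PBS libraries and 836 to 1076 FPKM in the IL-33 libraries, with a rise of 0.28 (SE 0.08, adjusted p 0.047). Its call was lost in 11 of 18 alternatives, with adjusted p up to 0.119, and among them without replicate 2 of the 6DKO PBS group (0.0566), replicate 1 or 2 of the WT PBS group (0.0709 and 0.062) and any 1 of the 6 IL-33 libraries (0.0509 to 0.119). The list median was 0.30 against 0.16. The docking and priming genes *Rab27a* and *Unc13d* were at 1.46 to 6.53 FPKM and 3.00 to 33.7 FPKM. Between genotypes 0 of 14 were called under either treatment, with 1 at an unadjusted p under 0.05 in each (13% of all genes under PBS and 1.86% under IL-33).

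Killing can also pass through ligands on the cell surface or in the medium. Of 5 such genes limma called *Tnf* alone for IL-33, averaged over genotypes (8.91% of all genes) and in each genotype, while 3 of 5 had an unadjusted p under 0.05 averaged (22.7% of all genes). *Tnf* was at 90.4, 194 and 169 FPKM in WT mice, and at 183, 149 and 103 FPKM in 6DKO mice given PBS, and at 50.0, 46.0 and 49.5 FPKM and 49.1, 42.1 and 53.4 FPKM after IL-33, without overlap of the treatments. It fell by 1.54 on the log2 scale averaged (SE 0.21, adjusted p 0.000794), by 1.55 in WT mice (adjusted p 0.0121) and by 1.53 in 6DKO mice (adjusted p 0.0175). The averaged call held in 18 of 18 alternatives. Within a genotype it ended without replicate 1 or 2 of the WT IL-33 group (0.0509 and 0.0541) and with only the groups compared (0.0525) in WT mice, and without any 1 of the 6DKO IL-33 libraries (0.0542 to 0.0772) in 6DKO mice. The list median was 0.65 in WT mice, -0.49 in 6DKO mice and 0.29 averaged. *Fasl*, the death ligand of killer cells, was at 46.6 FPKM in replicate 2 of the 6DKO PBS group and at most 7.15 FPKM elsewhere, that second value in replicate 1 of the 6DKO IL-33 group, as for *Gzma*. *Ifng* was at 28.0 FPKM in the first of these libraries, at 13.1 FPKM in replicate 3 of the WT PBS group, which also held *Gzmb*, *Gzmm* and *Prf1*, and at no more than 3.47 FPKM elsewhere. *Tnfsf10* and *Lta* stood at 3.10 to 16.9 FPKM and 13.7 to 51.8 FPKM. With IL-33 *Lta* was higher in WT mice without overlap (ratio 1.96, adjusted p 0.112) and *Tnfsf10* in 6DKO mice (ratio 2.18, adjusted p 0.377); the interaction had an adjusted p of 0.895 and 0.94. Between genotypes 0 of 5 were called under either treatment by limma (0.577% of all genes under PBS and 0.00875% under IL-33). An unadjusted p under 0.05 was likewise found for 0 of 5 (13% and 1.86% of all genes).

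Of 12 regulators known to act on granzyme and perforin genes in killer cells, 2 rose and 1 fell with IL-33 averaged over genotypes (5.81% and 3.1% of all genes), and the list median was 0.37 against 0.16. *Il2ra*, the high-affinity IL-2 receptor chain and also on the ILC2 list, was at 96.2, 122 and 112 FPKM in WT mice, and at 103, 100 and 132 FPKM in 6DKO mice given PBS, and at 19.0, 27.7 and 25.6 FPKM and 47.5, 29.4 and 35.3 FPKM after IL-33. It fell by 1.86 averaged (SE 0.17, adjusted p 6.13e-05), by 2.16 in WT mice (adjusted p 0.000679) and by 1.57 in 6DKO mice (adjusted p 0.00657), calls that held in every alternative. *Nfil3*, a transcription factor of innate lymphoid lineages, was at 69.4 to 134 FPKM under PBS and 150 to 230 FPKM after IL-33, and rose by 0.85 averaged (SE 0.17, adjusted p 0.00879), in 18 of 18 alternatives. In 6DKO mice it rose by 1.10 (adjusted p 0.0317), a call lost in 9 of 19 alternatives (adjusted p up to 0.143), where WT mice gave 0.59 (adjusted p 0.212) and the interaction was 0.51 (adjusted p 0.895). *Zeb2*, which acts downstream of T-bet in killer cells, was at 0.0761 to 1.87 FPKM under PBS and 2.73 to 5.58 FPKM after IL-33. It rose by 1.40 averaged (SE 0.35, adjusted p 0.0279), and the call ended without any 1 of the 6 IL-33 libraries (adjusted p 0.0539 to 0.0704), with quantile normalization (0.73, adjusted p 0.207) and with the smaller pseudocount (2.29, adjusted p 0.0639). *Eomes* and *Tbx21*, the T-box factors of NK cells, were listed at 0 in 10 and 7 of the 12 libraries. Between genotypes 0 of 12 were called under either treatment, with 1 at an unadjusted p under 0.05 in each (13% of all genes under PBS and 1.86% under IL-33).

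Markers of other cells also moved with IL-33, as *Ctsw* did. Averaged over genotypes, limma called 2 of 11 macrophage and dendritic cell genes, where 8.91% of all genes were called. It also called 1 of 3 B cell genes tested, 1 of 4 ILC3 genes and 1 of 7 mast cell and basophil genes. In the macrophage and dendritic cell list of 11 genes, *Cd74*, the class II chaperone that ILC2s also express, rose by 3.45 averaged (adjusted p 0.00207) and *Cd68* by 1.13 (adjusted p 0.0397). The median of that list was 0.015, against 0.159 for all genes. Over both genotypes the means of *Lyz2*, *Marco*, *Mrc1*, *Adgre1* and *Itgax* were lower after IL-33, and none of these was called. That of *Chil3* was higher, from 0 to 1.99 FPKM in WT mice and from 18.7 to 159 FPKM in 6DKO mice. It reached 394 FPKM in a 6DKO IL-33 library and was not called either. *Csf1r*, *Siglech* and *Flt3* were at no more than 0.213 FPKM. The list summed to 8.69, 56.0 and 83.8 FPKM in WT mice, and to 172, 203 and 114 FPKM in 6DKO mice given PBS, and to 291, 343 and 609 FPKM and 947, 1027 and 894 FPKM after IL-33, led by *Cd74* in 11 libraries, with *Csf1r* at no more than 0.0718 FPKM. The B cell marker *Cd79b* rose by 2.94 (adjusted p 0.0129), in a list of 5 that summed to 0, 0.139, 5.05, 0, 0 and 8.90 FPKM under PBS and to 26.9, 14.5, 12, 3.49, 18.4 and 5.91 FPKM after IL-33, WT before 6DKO, with *Ms4a1* and *Pax5* at 0 throughout. *Il17a*, of the ILC3 list of 5, rose by 1.52 (adjusted p 0.0394). That list summed to 12, 14.1, 14.3, 65.6, 8.86 and 51.4 FPKM under PBS and to 56.0, 62.6, 54.7, 50.7, 79.8 and 79.5 FPKM after IL-33, led by *Il17a* in 11 libraries, with *Il23r* at 0 throughout. The mast cell protease *Cpa3* fell by 1.35 (adjusted p 0.00743), in a list that summed to 166, 132, 155, 176, 245 and 145 FPKM under PBS and to 93.2, 101, 77.8, 95.4, 60.2 and 95.1 FPKM after IL-33. Of the T cell list, limma called 1 of 8 genes tested in 6DKO mice (2.86% of all genes). That gene, *Cd28*, rose by 2.58 (adjusted p 0.047), while the list median was -0.044. In the same comparison the means of *Cd3g*, *Cd3e* and *Cd6* were lower and that of *Cd3d* was higher, none of them called. Of the 11 ILC2 markers, 1 rose (*Klrg1*) and 4 fell (*Areg*, *Icos*, *Il2ra* and *Il5*) averaged over genotypes, where 5.81% and 3.1% of all genes did. The log2 fold changes were 0.92, -0.52, -0.53, -1.86 and -0.81, with adjusted p of 0.0121, 0.0177, 0.0358, 6.13e-05 and 0.0181 in that order. Neutrophil and eosinophil lists gave 0 averaged calls with limma, at 0 and 1 genes with an unadjusted p under 0.05 (22.7% of all genes). The part of these cells in the rise of *Ctsw* was not tested.

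The genes with the pattern nearest to each member with a mean of at least 5 FPKM were found by the root mean square difference of log2(FPKM + 1), centred for each gene, over the 12 libraries and 7411 genes. Near to *Gzma* were *Fasl* (1.5) and *Klre1* (1.5), and nearest to *Gzmb* were *Ager* (0.85), *Klre1* (0.93) and *Ncr1* (0.98). Each of these genes has its highest value in replicate 2 of the 6DKO PBS group. *Gzmb*, *Fasl*, *Klre1* and *Ncr1* reach a mean of 5 FPKM only through that library. Without it their means were 2.06, 1.3, 0.353 and 0.237 FPKM, so their likeness restates that 1 high value. Over the 11 libraries without replicate 2 of the 6DKO PBS group, the same distances were 1.3 and 1.4 for *Gzma* and 0.85, 0.97 and 1.0 for *Gzmb*. These genes had been chosen over all 12 libraries and lie mostly at or near 0 in the 11. Their distances there therefore show nothing of likeness apart from that library. Nearest to *Ctsw* were *Anxa2* (0.40), *Stmn1* (0.48) and *Tmem173* (0.56); *Anxa2* was at 71.5 to 263 FPKM in the PBS libraries and at 411 to 617 FPKM in the IL-33 libraries. *Srgn* lay nearest to *Aldoa* (0.11), *Btg1* (0.11) and *Ablim1* (0.13). *Serpinb6b* lay nearest to *Tuba4a* (0.62), *Chaf1b* (0.67) and *Kdm4c* (0.67), and *Serpinb9* to *Ufsp2* (0.62), *Pold1* (0.64) and *Fam133b* (0.67), each of which was at or near 0 in the library that lists *Serpinb9* at 0.

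In the annotation of build GRCm38, *Gzma* (chr13:113093825-113100981) and *Gzmk* (chr13:113171608-113225908) are neighbours on the minus strand of chromosome 13, which also carries *Serpinb6b* (chr13:32965209-32979067) and *Serpinb9* (chr13:33003250-33017957) side by side on the plus strand. *Gzmb* (chr14:56258838-56262260) and *Gzmc* (chr14:56231441-56234656) lie on the minus strand of chromosome 14. *Gzmm* (chr10:79689020-79695261, plus), *Prf1* (chr10:61297833-61304680, plus) and *Srgn* (chr10:62493833-62527451, minus) lie apart on chromosome 10, and *Ctsw* (chr19:5465043-5468507, minus) on chromosome 19. Neighbours differed in how often they were seen: *Gzma* was above 0 in 5 libraries and *Gzmk* in 0, *Gzmb* in 6 and *Gzmc* in 2. None of the 10 shares a stretch of 75 bases, the read length, with another gene, and of the exonic bases of *Ctsw* 9 overlap *Fibp* on the opposite strand (0.477%).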

How the data were processed

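RNA-seq of sorted mouse lung ILC2s was used from 12 libraries, 3 in each of 4 groups. The authors deposited 1 table of FPKM values per library; their processing notes name TopHat2 2.1.1 with Bowtie2, Cuffdiff 2.2.1 and mm10. Counts were not used here, so depth is known only relative to the other libraries. Values were analysed as log2(FPKM + 1), without further scaling, in R 4.3.3 with limma 3.58.1 (group means, moderated with a trend, 8 residual degrees of freedom, two-sided, Benjamini-Hochberg over 11430 genes averaging 0.5 FPKM or more or on a list, and above 0 in at least 1 library). Single genes were tested by exact permutation. Python 3.11.15, numpy 2.4.6, pandas 2.3.3 and matplotlib 3.10.9 did the rest. The members and lists were chosen with earlier results of these data known. Named are all members, from each list the genes called (or the 3 with the highest mean), and the 3 genes nearest to each member; others were named after their values were seen, and some are not reported here. Alternatives were a pseudocount of 0.1, no filter, quantile normalization, median-ratio scaling, array weights, a replicate block, only the groups compared, and each library left out in turn.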

Additional observations from a re-analysis of the deposited data

How the results depend on the processing

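All 6 PBS libraries listed more genes of middling level at 0 than any IL-33 library, and a granzyme at 0 there can be a missed low level. Of the 6, 5 were shallower than each IL-33 library, and replicate 3 of the 6DKO PBS group was not. The share at 0 did not simply follow depth. That replicate, at a depth of 0.998, listed 6.55% at 0, where replicate 2 of the 6DKO IL-33 group, at 0.969, listed 1.08%. Replicates 2 and 3 of the WT PBS group, at 0.889 and 0.887, listed 14.8% and 4.67%. What set the share at 0 was not tested. In the main fit each gene has 1 estimate of the spread, shared by all 4 groups of 3 libraries. PBS and IL-33 libraries are thus pooled, though they varied unequally. Array weights, which are lower for libraries that vary more, were 0.245 to 0.608 under PBS and 1.927 to 3.229 under IL-33. With 1 library left out its group rests on 2. Replicate numbers share only a number: correlations of residuals between libraries with the same number had a median of 0.005.

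The planned comparisons of a result with an alternative covered fold changes and counts of genes called. Of these, 560 stayed the same: a fold change kept direction and side of the threshold, or a count stayed within 1.5 times. Of the rest, 16 lost a call, 5 gained one, 27 changed sign and 64 counts moved by over 1.5 times. For pathway genes, added after the data were seen, 351 kept their side, 93 lost the call and 1 gained one. The cause was not tested.

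Members called went to 0 for IL-33 in 6DKO mice with no filter and with only the groups compared. Leaving out 1 library gave 0 to 2 members called for IL-33 in WT mice, 0 to 1 in 6DKO mice, 1 to 2 averaged, and 0 to 1 between genotypes under PBS (*Serpinb9*). For all genes, the 66 called between genotypes under PBS became 33 with no filter, 36 with quantile normalization, 1 with array weights, 15 with the replicate block and 1 with only the groups compared. The 1 gene called under IL-33 became 2 with a pseudocount of 0.1, 0 with quantile normalization, 57 with array weights and 0 with only the groups compared. The 2 of the interaction became 5 with a pseudocount of 0.1 and 1 with the replicate block. Leaving out 1 library gave 209 to 692 genes for IL-33 in WT mice, 132 to 494 in 6DKO mice, 669 to 1246 averaged, 20 to 210 between genotypes under PBS, 0 to 3 under IL-33 and 0 to 28 for the interaction. With the replicate block *Ctsw* was called for IL-33 in both genotypes and averaged.

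Signs changed in genes that were not called. With a pseudocount of 0.1 *Serpinb9* gave 0.68 for IL-33 in 6DKO mice, 0.46 averaged, -0.67 between genotypes under PBS and 0.45 for the interaction. With quantile normalization *Srgn* gave 0.00 for IL-33 in 6DKO mice and 0.10 between genotypes under IL-33, and with array weights *Ctsw* gave -0.05 between genotypes under PBS. Leaving out 1 library, the log2 fold change of *Srgn* ran from -0.13 to 0.039 for IL-33 in 6DKO mice and from -0.12 to 0.057 between genotypes under IL-33. *Serpinb9* ran from -2.22 to 0.90 for IL-33 in 6DKO mice, from -1.004 to 0.56 averaged, from -0.88 to 2.24 and from -0.46 to 0.12 between genotypes under PBS and IL-33, and from -2.43 to 0.69 for the interaction. *Ctsw* ran from -0.51 to 0.64 between genotypes under PBS and from -1.07 to 0.087 for the interaction.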
